A study of Mus musculus with 2 samples.

Results

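Cycling myeloid cells were defined as barcodes that carried both the transcripts of dividing cells and those of myeloid cells, the lineage of macrophages, monocytes and dendritic cells. A barcode, which stands for 1 droplet, was selected on raw counts of unique molecular identifiers (UMIs): 4 or more UMIs summed over Mki67, Top2a, Birc5 and Ube2c with at least 2 of the 4 detected, 5 or more of H2-Ab1 and Lyz2, 0 of Cd3d, Cd3e and Cd3g, and at most 4 of Krt5 and Krt14. The rule left 86 of the 26553 barcodes that had 500 or more UMIs, 250 or more genes and under 10% mitochondrial UMIs. Of these, 26 of 11934 came from the WT library and 60 of 14619 from the IL31RAKO library. The study asked what interleukin-31 signalling contributes to dermatitis driven by house dust mite. WT C57Bl/6 mice and IL31RAKO mice of the C57Bl/6 background, which lack the interleukin-31 receptor alpha chain, were both treated. Biostir ointment, which contains allergens of the mite D. farinae, was applied to the shaved back over 3 weeks, with 2 applications per week that each followed a 2% SDS wash by 2 hours, so that neither group was untreated. Skin of 4 mice per genotype was pooled and digested, live CD45+ leukocytes were sorted, and 30000 cells per genotype were loaded as 1 library each on the 10x Single Cell 3′ v2 system. With 1 library per genotype there was no replicate and no test. Intervals are 95% intervals, exact except for ratios of shares, where a large-sample approximation on the log scale was used. All cover counting error only, neither the spread between mice nor, for gene ratios, that between cells. The age of the mice and the way the receptor allele was made are not given in the sources used here.

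Cells that divide copy their DNA in S phase, then pass through G2 into mitosis. Genes for replication, such as those of the Mcm helicase and Pcna, its sliding clamp, are switched on largely by E2F factors around S phase. Genes for mitosis, such as cyclin B and its partner kinase Cdk1, are released later, by the DREAM and MuvB complexes that act on a promoter element called CHR. In skin, Langerhans cells of the epidermis are known to keep their number by dividing in place, tissue macrophages can divide under signals through the Csf1 receptor, and conventional dendritic cells (cDC1 and cDC2) are mostly renewed from precursors in bone marrow.

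The 4 genes that chose the cells belong to the later part of this programme. Mki67 encodes the coat protein of mitotic chromosomes, Top2a untangles DNA, Birc5 (survivin) belongs to the chromosomal passenger complex, and Ube2c is the ubiquitin-conjugating enzyme of the anaphase-promoting complex. Birc5 aside, the promoters of the 3 others held both a CHR and a CCAAT box, the site of the factor NF-Y. They are printed here with the promoter of Mcm6, a replication helicase subunit, for contrast. Each runs from 200 bases before to 30 after the RefSeq start on build GRCm38, 5′ to 3′ on the strand of the gene, with motif letters in capitals. The positions are chr7:135716350-135716579 for Mki67 (minus strand), chr11:99024160-99024389 for Top2a (minus strand), chr2:164769729-164769958 for Ube2c (plus strand) and chr1:128359676-128359905 for Mcm6 (minus strand).
Mki67: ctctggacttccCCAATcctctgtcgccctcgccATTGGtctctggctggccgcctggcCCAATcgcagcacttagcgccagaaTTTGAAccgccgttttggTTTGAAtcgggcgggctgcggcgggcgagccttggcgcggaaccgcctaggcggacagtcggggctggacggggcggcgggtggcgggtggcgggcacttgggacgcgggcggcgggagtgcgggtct
Top2a: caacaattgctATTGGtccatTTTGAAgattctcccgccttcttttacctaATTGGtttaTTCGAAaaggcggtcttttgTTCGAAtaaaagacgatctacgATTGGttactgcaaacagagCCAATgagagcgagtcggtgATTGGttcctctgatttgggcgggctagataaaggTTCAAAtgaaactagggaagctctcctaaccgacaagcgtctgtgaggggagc
Ube2c: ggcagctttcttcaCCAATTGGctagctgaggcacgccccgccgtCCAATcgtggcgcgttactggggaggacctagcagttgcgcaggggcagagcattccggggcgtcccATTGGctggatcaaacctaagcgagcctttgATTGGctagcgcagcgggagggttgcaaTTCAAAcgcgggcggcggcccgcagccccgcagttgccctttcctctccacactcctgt
Mcm6: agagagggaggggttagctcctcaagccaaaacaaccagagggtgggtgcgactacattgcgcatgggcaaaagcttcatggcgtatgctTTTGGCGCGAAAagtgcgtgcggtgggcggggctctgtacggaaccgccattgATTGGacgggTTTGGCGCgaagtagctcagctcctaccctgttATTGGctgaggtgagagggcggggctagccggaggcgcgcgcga
The letters searched on both strands were TTTGAA and TTCGAA for CHR, CCAAT for the CCAAT box, and TTTGGCGC, TTTCGCGC and GCGGGAA for E2F. In Mki67 the CHR letters began 116 and 98 bases before the start, and in Ube2c 29 bases before it. Overlapping matches, such as the pair of E2F matches that began 110 and 106 bases before the Mcm6 start, share capitals. In the full 300-base windows, from 250 bases before to 50 after the start, CHR letters occurred in 26 of 33 matched genes of a mitosis and G2 list (78.8%), in 4 of 29 of a replication and S phase list (13.8%) and in 21.7% of all 27025 genes with a promoter. The E2F letters went the other way, with 2 of 33 mitosis genes (6.06%), 17 of 29 replication genes (58.6%) and 6.10% of all genes. The CCAAT letters are common, at 41.1% of all genes, and occurred in 25 of 33 mitosis genes and 16 of 29 replication genes. A match is a description of letters and was not tested as a bound site.

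The members were deeper than other myeloid barcodes. Their totals ran from 624 to 14584 UMIs with a median of 5210 in WT, and from 1960 to 24307 with a median of 8513 in IL31RAKO. Gated barcodes, which met every part of the rule but the cycle genes, had medians of 2333 and 3046 UMIs. Its thresholds count UMIs, where depth makes the cycle and myeloid minima easier to reach and the Cd3 and keratin limits harder to keep, so shares were also computed with every barcode thinned to 2000 UMIs. The sum over the 4 cycle genes ran from 4 to 21 with a median of 5 in WT, and from 4 to 83 with a median of 10 in IL31RAKO. Just inside the threshold, 4 WT and 10 IL31RAKO members had a sum of 4, and just outside it 10 and 16 gated barcodes had a sum of 3. Top2a was detected in 25 of 26 WT and 43 of 60 IL31RAKO members, Birc5 in 19 and 58, Mki67 in 23 and 51, and Ube2c in 14 and 41. These values chose the cells and are given as a description.

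The demand for 0 Cd3 UMIs removed more cycling barcodes that met the other parts of the rule than it kept. RNA free in the droplets carried 1958 and 2500 counts per 1000000 UMIs (CPM) from the 3 Cd3 genes (WT and IL31RAKO, barcodes of 10 to 50 UMIs). Of barcodes with 15 or more UMIs of H2-Ab1 and Lyz2, 33.0% had 0 Cd3 UMIs in WT and 40.3% in IL31RAKO. Beyond the members, 79 WT and 103 IL31RAKO cycling barcodes had 1 or 2 Cd3 UMIs, and 70 and 98 of them had 15 or more UMIs of H2-Ab1 and Lyz2. Whether these barcodes hold free Cd3 RNA or a T cell beside a myeloid cell was not tested. A wider limit, at most 2 Cd3 UMIs with 15 or more of H2-Ab1 and Lyz2, gave 90 and 152 barcodes and is set beside the results. Doublets, droplets with more than 1 cell, were not removed by the rule. Among members, 10 of 26 in WT (38.5%) and 17 of 60 in IL31RAKO (28.3%) were in the top-scoring fraction of a doublet caller, against 9.54% and 11.7% of all kept barcodes. No member's barcode occurred in both libraries as a member, and 1 occurred among the kept barcodes of the other library.

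The label was checked against marker lists of skin and immune cell types. Each barcode was assigned to the list with the most UMIs, if at least 5, and a tie went to the list that came first in a fixed order. Macrophage genes led in 8 WT and 17 IL31RAKO members, cDC2 genes in 9 and 14, Langerhans cell genes in 3 and 9, cDC1 genes in 0 and 6, and monocyte genes in 0 and 5. A further 4 WT members led with no list. Against the label, T, ILC or NK cell genes led in 2 and 7 members, fibroblast genes in 1 and neutrophil genes in 1 IL31RAKO member. The assignment is a leading gene group and not a proven type: in 24 of the 86 the second list reached at least 0.5 times the UMIs of the first, and 16 led by only 5 to 9 UMIs.

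**Figure D1:**
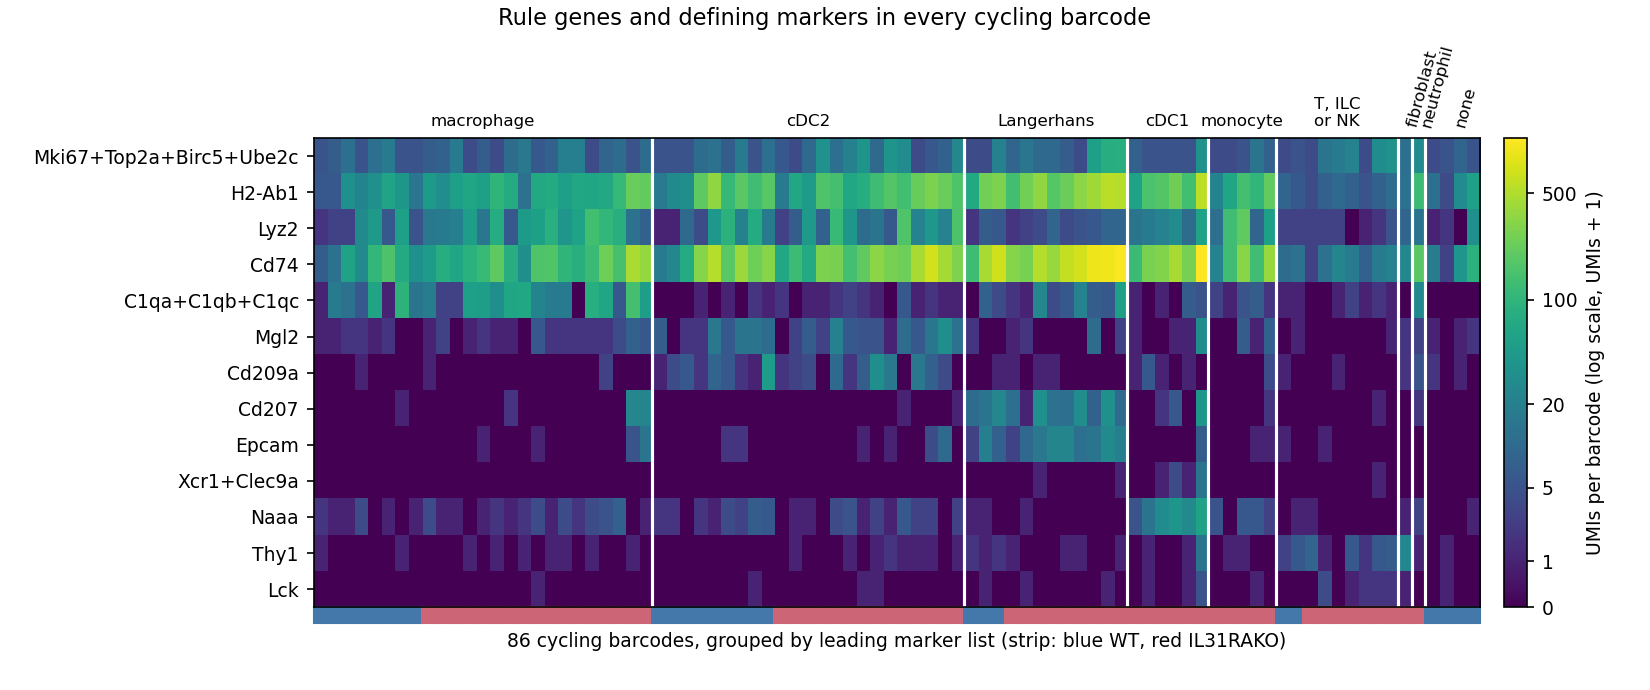
UMIs of the rule genes and of defining marker genes (rows, colour on a log scale of UMIs + 1) in each of the 86 cycling barcodes (columns), grouped by leading marker list and coloured below by library. The 12 barcodes led by Langerhans genes carry Cd207 and Epcam, 24 of the 25 led by macrophage genes carry C1q, and the 9 led by T, ILC or NK genes carry at most 11 UMIs of H2-Ab1.

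Langerhans-led members carried Cd207, Epcam and Mfge8, genes of the list that assigned them, so these values describe the assignment. All 12 had Cd207 (langerin, the receptor that forms Birbeck granules), with 1 to 33 UMIs and a median of 12.5. All 12 had Epcam (the epithelial cell adhesion molecule), with 3 to 28 UMIs and a median of 15. They also had Mfge8, a bridging protein in the uptake of dying cells, with 2 to 182 UMIs and a median of 84.5. They held 3591 UMIs of H2-Ab1 and 66 of Lyz2, so that the class II gene of the gate carried them. Csf1r, the receptor through which Langerhans cells are maintained, had 73 UMIs in 10 of the 12.

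Macrophage-led members were assigned by a list that holds the C1q genes, so the C1q values describe that assignment. C1qa and C1qb, subunits of the first complement component, each had 358 UMIs in the 25 barcodes, in 23 and 22 of them, and Lyz2 (lysozyme) had 971 UMIs in all 25. Pf4, a chemokine of resident macrophages, had 182 UMIs in 20, with 60 in the highest barcode. Retnla, a gene of alternatively activated macrophages, had 245 UMIs, of which 164 lay in 1 barcode, and 7 of the 25 had any. Lyve1, a defining gene of the resident type, was at 0 in all members of both libraries. It was also at 0 in non-cycling gated barcodes of WT and at 2.89 CPM (33 UMIs) in those of IL31RAKO, so its absence does not set the members apart. Ccr2, the receptor of cells recruited from blood, had 61 UMIs in 17 of the 25.

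The cDC2-led members carried Mgl2 (a C-type lectin of dermal cDC2) at 200 UMIs in 21 of 23 and Cd209a (a lectin of the DC-SIGN family) at 183 UMIs in 20 of 23. Flt3, the growth factor receptor of the dendritic lineage, had 8 UMIs in 6 of them and was at 0 in the 25 macrophage-led members. The 6 cDC1-led members held 173 UMIs of Naaa and 75 of Irf8, the factor that specifies cDC1. Of their defining genes, Xcr1 had 15 UMIs in 2 barcodes and Clec9a 5 UMIs in 3. Of these UMIs 14 lay in 1 barcode, which was in the top-scoring fraction of the doublet caller. Another of the 6 had 5 UMIs of the cDC1 list and 5 of the cDC2 list. In WT members Xcr1 and Clec9a were both at 0. All genes named here but Irf8 belong to the lists that assigned the barcodes, so their values describe that assignment.

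The 9 members led by T, ILC or NK genes had few myeloid transcripts. They carried 4 to 11 UMIs of H2-Ab1 and 0 to 5 of Lyz2, the genes on which they were selected, and free RNA in the droplets held 10994 (WT) and 10585 (IL31RAKO) CPM of H2-Ab1. Thy1, a surface protein of T cells and innate lymphoid cells, had 40 UMIs in 8 of the 9. Of the genes that assigned them, Nkg7, a granule protein of cytotoxic cells, had 95 UMIs, and Gzma, a granzyme, 22 UMIs in 1 barcode. Csf1r and Csf2ra were at 0 in all 9. Over the whole T list 4 of the 8 matched genes were detected in WT members and 5 in IL31RAKO members, with the Cd3 genes at 0 by the rule. The ILC or NK list summed to 449 and 390 CPM in members, against 239 in non-cycling gated barcodes of each library. Free RNA held more of that list, at 1049 CPM in WT and 1216 in IL31RAKO. Melanocyte genes were at 0, and B cell genes summed to 2 and 7 UMIs. Of 265 fibroblast UMIs in IL31RAKO members 232 lay in 1 barcode.

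The share of gated barcodes that were cycling differed by leading list. Over both libraries it was 11.5% for Langerhans-led barcodes (12 of 104, interval 6.11 to 19.3%), 5.26% for cDC1-led (6 of 114, 1.96 to 11.1%), 2.48% for cDC2-led (23 of 928, 1.58 to 3.70%) and 0.895% for macrophage-led (25 of 2792, 0.580 to 1.32%). It was 6.04% (9 of 149, 2.80 to 11.2%) for those led by T, ILC or NK genes. Over both libraries the Langerhans and macrophage intervals do not overlap, nor do those of cDC2-led and macrophage-led barcodes. Within each library the cDC2 and macrophage intervals overlap (1.19 to 4.84% and 0.386 to 1.75% in WT, 1.33 to 4.02% and 0.523 to 1.43% in IL31RAKO). The Langerhans interval overlaps the macrophage one in WT but not in IL31RAKO. Cells of 1 library share their source, so the order of the shares is one within these 2 libraries. By library the Langerhans share was 3 of 55 in WT (5.45%, 1.14 to 15.1%) and 9 of 49 in IL31RAKO (18.4%, 8.76 to 32.0%), whose intervals overlap. Monocyte-led barcodes were cycling in 5 of 573 and neutrophil-led ones in 1 of 339. In WT, 0 of 157 monocyte-led barcodes allows a share of up to 1.91%, if a count of 0 is taken to allow 3 counts.

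Depth moved with this order. Median UMIs of gated barcodes in WT and IL31RAKO were 7476 and 10242 for Langerhans-led, 5760 and 8035 for cDC1-led, 3919 and 5535 for cDC2-led and 2101 and 2922 for macrophage-led barcodes. Thinned to 2000 UMIs, the shares over both libraries were 4.75% (14 of 295, 2.62 to 7.83%), 3.19% (9 of 282), 1.05% (15 of 1429) and 0.549% (14 of 2551, 0.300 to 0.919%), in the same order and lower. The cDC2 and macrophage intervals over both libraries then overlapped. Under the wider Cd3 limit the Langerhans-led shares were 15 of 195 in WT (7.69%, 4.37 to 12.4%) and 20 of 133 in IL31RAKO (9.43 to 22.3%). The others were 4.27% in WT and 6.47% in IL31RAKO for cDC1-led, 4.23% and 4.26% for cDC2-led, and 1.10% and 1.24% for macrophage-led barcodes. That order was the same in each library. It was not under the other settings in WT, where cDC1-led barcodes had 0 of 38 under the rule and 3.41% against 3.05% for Langerhans-led ones after thinning.

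**Figure D2:**
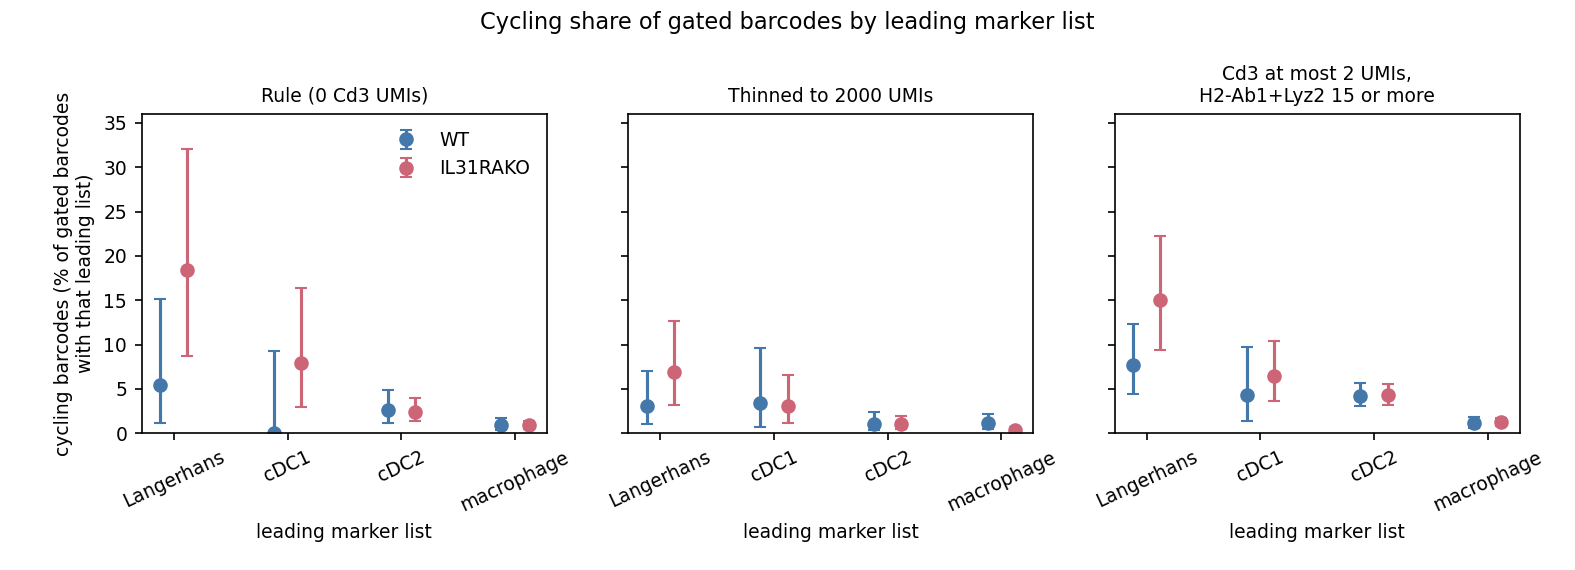
Percent of gated barcodes led by 4 of the marker lists (x axis) that were cycling (y axis), for WT (blue) and IL31RAKO (red), under the rule, after thinning to 2000 UMIs, and with the wider Cd3 limit. Points are shares and bars exact 95% binomial intervals; of the 4 lists plotted, Langerhans has the highest IL31RAKO share and macrophage the lowest in all 3 panels, and the WT cDC1 point under the rule is 0 of 38.

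Members took a larger share of the IL31RAKO library. They were 0.218% of kept barcodes in WT (0.142 to 0.319%) and 0.410% in IL31RAKO (0.313 to 0.528%), a ratio of 1.88 (1.19 to 2.98). Gated myeloid barcodes were also more frequent there, at 16.6% of kept barcodes in WT and 26.4% in IL31RAKO, a ratio of 1.59. Within gated barcodes the cycling share was 1.31% in WT (0.857 to 1.91%) and 1.55% in IL31RAKO (1.19 to 2.00%), and the ratio of 1.19 had an interval from 0.751 to 1.87. Thinned to 2000 UMIs the 2 ratios were 1.15 and 0.704 (0.459 to 1.08), and under the wider Cd3 limit 1.38 and 0.985, and with the other lymphoid markers limited to 1 UMI the second was 0.859, so that the direction within myeloid barcodes was not held. Thinning also lowers Cd3 counts, by which other barcodes meet the limit of 0, and leaves out barcodes under 2000 UMIs, and these effects were not separated. Macrophage-led barcodes went from 0.893% against 0.897% to 1.12% against 0.326% (ratio 0.291, 0.101 to 0.836) on thinning, with 8 and 6 cycling barcodes. Cycling barcodes with 3 or more Cd3 UMIs, used as the lymphoid counterpart, were 4.47% of kept barcodes in WT and 2.63% in IL31RAKO, a ratio of 0.589 (0.517 to 0.669). With pooled mice, fewer cells of a type and a different yield on digestion cannot be told apart.

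The members leaned to G2 and mitosis, the stages in which the 4 genes of the rule peak, so the rule itself favours this lean. After thinning to 2000 UMIs, 11 of 21 WT members and 45 of 59 IL31RAKO members had more UMIs of the mitosis list than of the replication list. Members with more replication UMIs were 8 of 21 in WT (38.1%, 18.1 to 61.6%) and 10 of 59 in IL31RAKO (16.9%, 8.44 to 29.0%), and the intervals overlap. In cycling Cd3 barcodes the same share was 30.1% and 35.1%. Under the wider Cd3 limit it was 23.0% in WT and 26.5% in IL31RAKO, in the opposite order to the members. A new random draw of UMIs, made without the members led by T, ILC or NK or fibroblast genes, gave 26.3% and 21.6%. In the draw used above, 2 of the 8 WT and 1 of the 10 IL31RAKO members with more replication UMIs were led by T, ILC or NK genes, and 0 by fibroblast genes. The 26.3% and 21.6% thus differ from the first shares by the draw as well as by the members left out. By leading list, 0 of 12 Langerhans-led members leaned to replication and 11 to mitosis, against 8 and 10 of 21 cDC2-led members and 6 and 17 of 24 macrophage-led members.

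**Figure D3:**
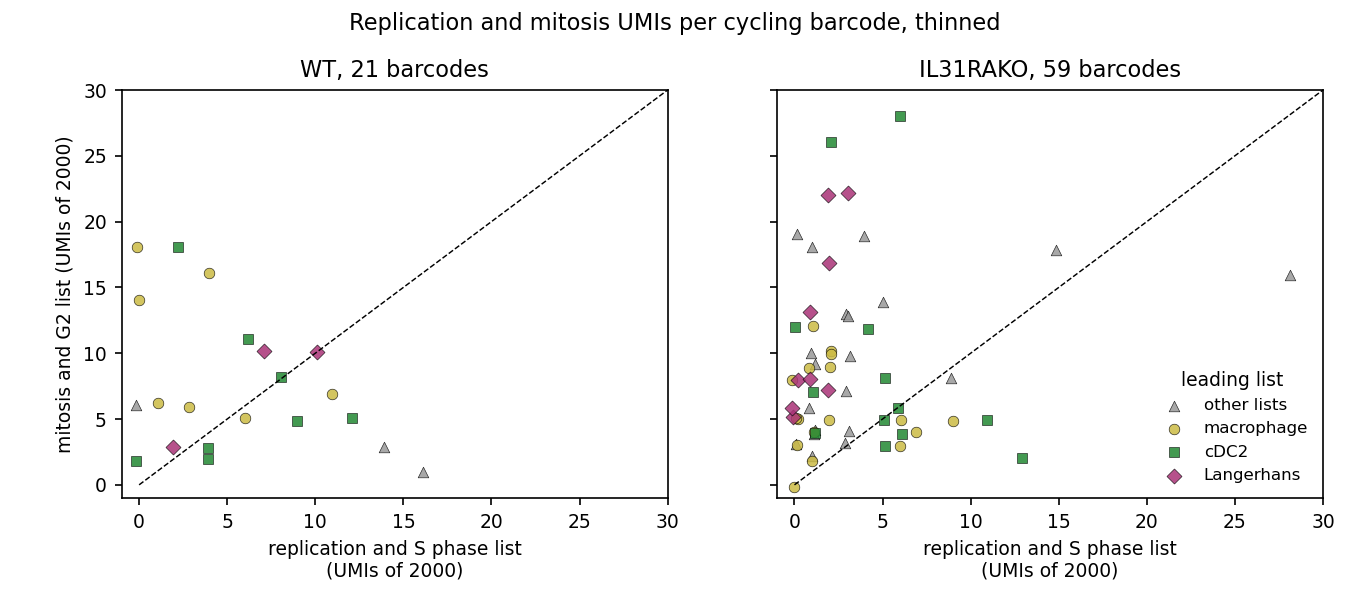
UMIs of the replication and S phase list (x axis) against the mitosis and G2 list (y axis) in each cycling barcode after thinning to 2000 UMIs, for WT (left) and IL31RAKO (right), marked by leading list; points are moved by up to 0.2 so that they do not hide each other, and the dashed line marks equal UMIs. None of the 12 Langerhans-led barcodes lies below the line, and 8 WT and 10 IL31RAKO barcodes do.

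Next, members were set beside the 1676 WT and 3331 IL31RAKO gated barcodes with 0 UMIs of the 4 cycle genes. This contrast is the one the rule was built on, so its values describe the chosen cells and carry no test. Levels are CPM of the summed UMIs of a set. Of 6718 genes with 50 or more UMIs in each library, 213 (3.17%) were 2-fold or more higher in members in both libraries, and 197 (2.93%) were 2-fold or more lower in both. Of the chromatin and tubulin list all 15 genes were 2-fold or more higher in both. So were 15 of the 17 measured replication genes and 10 of the 11 measured mitosis genes, and the one mitosis gene outside was Pttg1 (securin), named after its values were seen. The replication list had a median log2 ratio of 2.91 in WT and 2.42 in IL31RAKO and the mitosis list one of 3.60 and 4.15, against 0.083 and 0.063 over all genes.

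Single genes of each cycle list stood many-fold above non-cycling barcodes. Hist1h2ap, a replication-dependent H2A histone, stood at 1692 CPM in WT members against 34.4 in non-cycling barcodes, and at 1302 against 31.2 in IL31RAKO. Stmn1, which destabilises microtubules, stood at 1601 against 61.6 CPM and 1396 against 47.4. Ccnb2 (a B-type cyclin) was 27.5-fold higher in WT and 64.4-fold in IL31RAKO, and Cdk1 27.2-fold and 29.7-fold. Outside the cycle lists were Spc24, a kinetochore subunit, at 20.3-fold and 19.9-fold, the histone chaperone Asf1b at 18.5-fold and 19.6-fold and, named after their values were seen, the methyltransferase Ezh2 at 6.64-fold and 5.44-fold, and Gmnn (geminin), which blocks a second round of replication, at 6.87-fold and 4.63-fold.

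The 12 lowest genes in members by the naming rule were Ccl12, Ccl8, Ccl3 and Ccl7 (chemokines), S100a8 and S100a9, Ifitm1, Gas6, C5ar1, G0s2, Ly6c2 and Rtp4. Ccl8, a chemokine of skin macrophages, stood at 91.3 CPM in WT members against 1410 in non-cycling barcodes, and at 169.6 against 2291 in IL31RAKO. Ccl3 was at 0.115 and 0.134 of its non-cycling level, Ccl12 at 0.0639 and 0.0215, and Ccl7 at 0.0320 and 0.211, from 1 to 55 UMIs each. S100a8 and S100a9, the calgranulins of neutrophils, were at 0.0786 and 0.117, and at 0.218 and 0.122. The neutrophil list summed to 70.2 CPM in WT members and 467 in IL31RAKO members, against 502 and 3921 in non-cycling barcodes, which include 30 and 286 neutrophil-led barcodes. Of the inflammatory list 7 of 14 measured genes were 2-fold or more lower in both libraries, with medians of -2.00 and -1.87. The alternative activation list had 3 of 13 (medians -0.64 and -1.30) and the lysosome and phagocytosis list 3 of 12 (medians -0.91 and -0.72).

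The mix of cell types moved with these lower genes. With non-cycling barcodes weighted to the members' mix of leading lists, 81 genes in place of 197 were 2-fold or more lower in both libraries. Within macrophage-led barcodes alone, libraries summed, the inflammatory list had a median of -0.84, alternative activation -0.92 and lysosome -0.62 (11 of 12 genes lower). Within cDC2-led barcodes the inflammatory median was -0.27 and the lysosome median -0.17. Over all types Ctss, a lysosomal protease, stood at 1397 against 2558 CPM in WT and 1440 against 2638 in IL31RAKO, and Psap (prosaposin) at 1032 against 2172 and 1569 against 2049.

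Glycolysis genes were slightly higher in members. Of the 13 glycolysis and hypoxia genes, 11 were higher in members in both libraries and none by 2-fold in both, where 2452 of all 6718 genes were higher in both, with medians of 0.67 in WT and 0.60 in IL31RAKO. Gapdh, the mid-pathway dehydrogenase, stood at 1447 against 899 CPM in WT and 1766 against 991 in IL31RAKO. Ldha, which makes lactate, was 1.59-fold and 1.80-fold higher. Within leading lists the median was 0.43 for macrophage-led, 0.27 for cDC2-led and 0.71 for Langerhans-led barcodes, where 8 of 8 measured genes were higher. With the other lymphoid markers limited to 1 UMI the median over both libraries was 0.17 in place of 0.60. Antigen presentation genes differed little: the 12 genes of the class II presentation list, which also holds the costimulatory gene Cd86, had medians of -0.21 and -0.031. Cd74, the invariant chain, was at 1.06 and 1.07 of its non-cycling level.

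**Figure D4:**
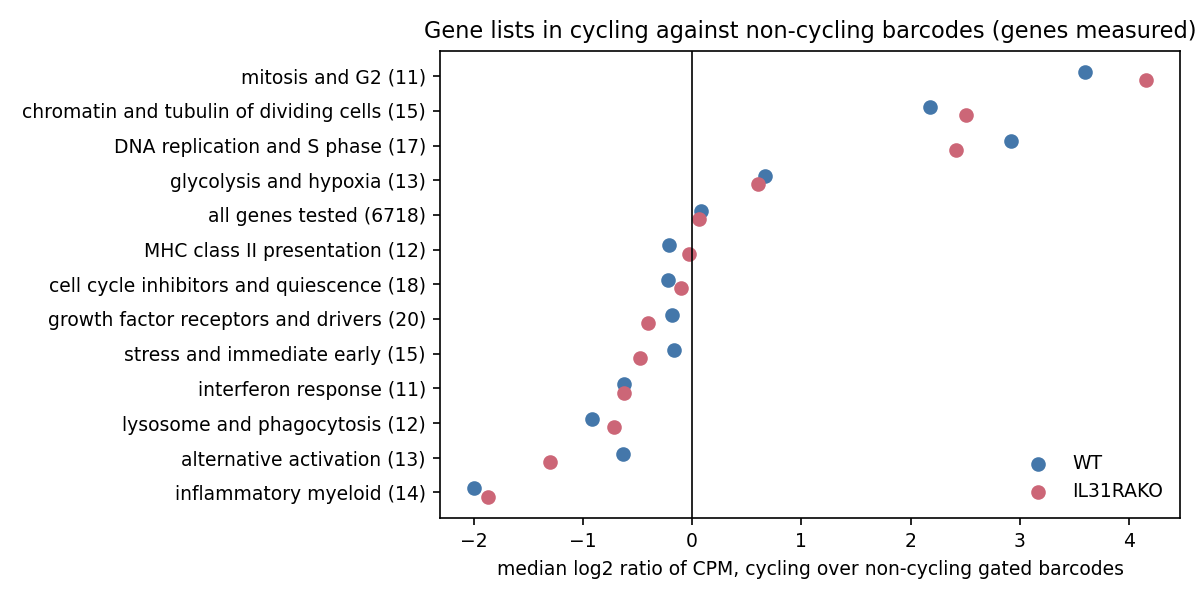
Median log2 ratio of CPM in cycling members over non-cycling gated barcodes (x axis) for each gene list (y axis, number of genes measured in brackets), WT in blue and IL31RAKO in red. The 3 cycle lists lie at 2.17 or more in both libraries, glycolysis at 0.67 and 0.60, and the inflammatory list at -2.00 and -1.87.

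Growth factor receptors were read in the members by leading list, and D cyclins over all members. Csf1r stood at 476 CPM in cycling and 560 in non-cycling Langerhans-led barcodes, with intervals of 373 to 598 and 496 to 631 that overlap, libraries summed. In macrophage-led barcodes the 2 libraries went opposite ways, with Csf1r at 530.5 CPM (309 to 849) in cycling and 418 (389 to 448) in non-cycling barcodes of WT, from 17 UMIs in 8 cycling barcodes, and at 238 (159 to 341) and 454 (436 to 473) in IL31RAKO. Csf2ra, a chain of the GM-CSF receptor, stood at 235 (164 to 325) and 239 (198 to 287) CPM in Langerhans-led and at 227 (163 to 308) and 206.5 (192 to 222) in cDC2-led barcodes, libraries summed. In macrophage-led ones it stood at 62.4 (7.56 to 225) and 113 (98.5 to 130) in WT, from 2 UMIs in cycling barcodes, and at 238 (159 to 341) and 128 (119 to 138) in IL31RAKO. Ccnd1, Ccnd2 and Ccnd3, the D cyclins that carry growth signals into the cycle, had 17, 20 and 16 UMIs in WT members and 33, 22 and 68 in IL31RAKO members. At the unequal depth of the libraries these were 119, 140 and 112 CPM in WT and 59.5, 39.7 and 123 CPM in IL31RAKO. Of the inhibitor and quiescence list, the antiproliferative genes Btg1 and Btg2 were at 0.515 and 0.765, and at 0.735 and 0.671, of their non-cycling level in WT and IL31RAKO, while Cdkn1a (p21, a cycle inhibitor) was at 1.68 and 0.841.

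The 2 libraries were then compared within the members, a contrast that the rule did not use. Of 1811 genes with 50 or more UMIs over both, 269 (14.9%) were 1.5-fold or more higher in IL31RAKO and 109 (6.02%) 1.5-fold or more lower, with a median log2 ratio of 0.084. The summed depth was 142400 UMIs in WT and 554336 in IL31RAKO, so WT counts set the precision. A gene higher in IL31RAKO also reached 50 UMIs at a lower CPM than a gene higher in WT, so the filter favours genes higher in IL31RAKO. With no filter on UMIs, more genes were 1.5-fold or more lower than higher. The leading lists differ between the 2 sets of members as given above, and their part in these ratios was not tested.

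Replication genes were lower in IL31RAKO members. Of the 36 listed, 10 passed the filter on UMIs, 9 of them were lower and 5 by 1.5-fold or more, with none as much higher, and the median log2 ratio was -0.64. Pcna, the sliding clamp, had 53 UMIs in 16 of 26 WT members and 81 in 35 of 60 IL31RAKO members, or 372 and 146 CPM, a ratio of 0.393 (0.274 to 0.566). In non-cycling barcodes Pcna stood at 69.7 and 56.1 CPM. Dut, which keeps uracil out of DNA, stood at 302 and 180 CPM (0.597, 0.414 to 0.875). Slbp, which binds histone mRNA, stood at 204 and 141 CPM (0.691, 0.446 to 1.10) and Rrm2, of ribonucleotide reductase, at 176 and 124 (0.709, 0.443 to 1.17), with intervals that include 1. The replication-dependent histones Hist1h2ae (421 and 213 CPM, ratio 0.505) and Hist1h1b (295 and 153 CPM, 0.520) were lower as well. Under the wider Cd3 limit the list median was -0.15 and the log2 ratio of Pcna was -0.52 in place of -1.35, and without Langerhans-led members the list median was -0.31.

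Mitosis genes were spread to the other side. Of the 38 listed, 23 passed the filter, 8 were 1.5-fold or more higher in IL31RAKO and 1 (Aurkb, named after its values were seen) as much lower, with a median of 0.30. Of the 4 with the most UMIs, Cks2, a subunit of the Cdk complex, stood at 211 and 373 CPM (ratio 1.77, 1.20 to 2.69). Its relative Cks1b stood at 316 and 341 (1.08, 0.776 to 1.53), Cenpa, the histone of centromeres, at 246 and 327 (1.33, 0.921 to 1.97), and Smc4, of condensin, at 232 and 290 (1.25, 0.858 to 1.88), with intervals that include 1. The 4 genes of the rule went both ways. Ube2c had a ratio of 2.14, with 35 of its 250 UMIs in 1 barcode, and Birc5 one of 1.71 (1.25 to 2.40). Top2a was at 0.702 (0.540 to 0.921) and Mki67 at 0.835 (0.616 to 1.15). With each barcode given equal weight the median was -0.10, and under the wider Cd3 limit 0.0076, so the direction was not held.

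**Figure D5:**
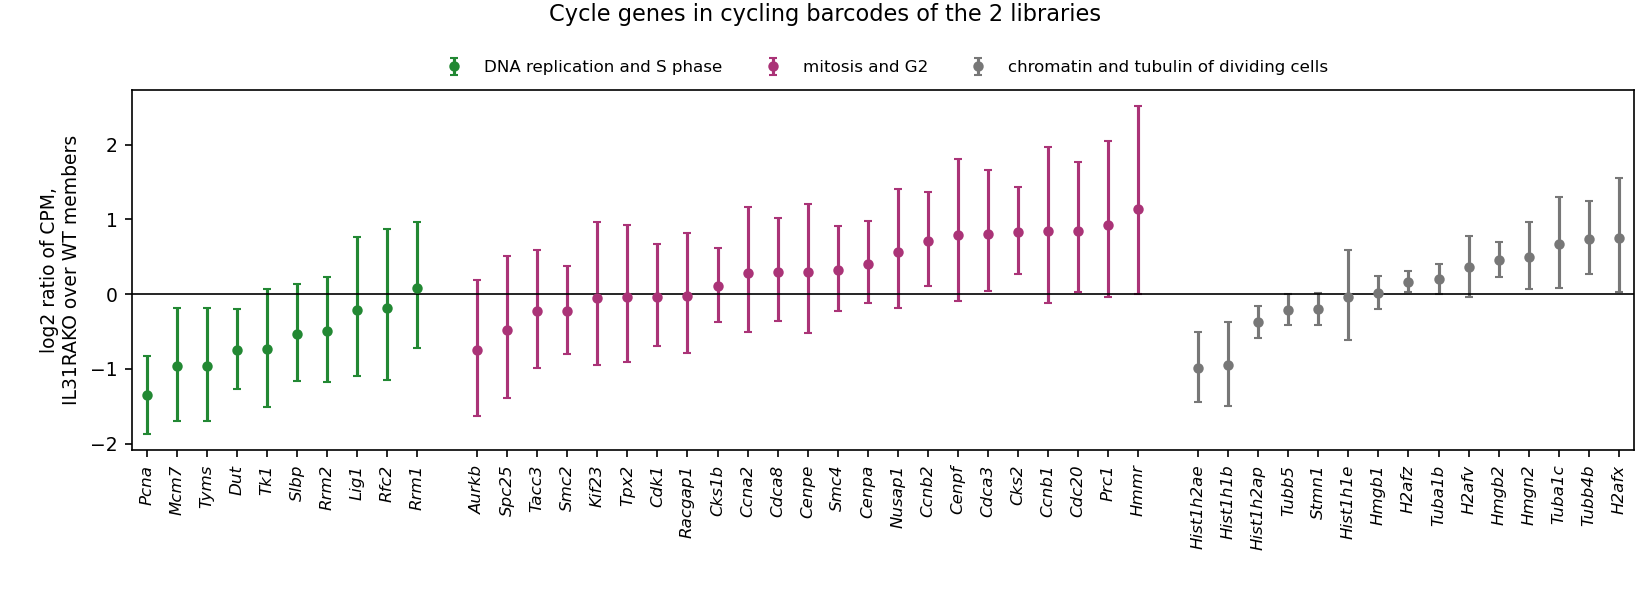
Log2 ratio of CPM, IL31RAKO over WT, in cycling members (y axis) for each cycle gene with 50 or more UMIs (x axis), coloured by list; bars are exact 95% counting intervals. Of 10 replication genes 9 lie below 0, of 23 mitosis genes 15 lie above it, and many intervals cross it.

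Of single genes higher in IL31RAKO members, Ccl2, the main monocyte attractant, had 2 UMIs in 1 of 26 WT members and 98 UMIs in 15 of 60 IL31RAKO members, or 14.0 and 177 CPM (ratio 12.6, 3.39 to 105). In non-cycling barcodes it stood at 148 and 157 CPM, so the WT members were the low set. Irf8 had 5 UMIs in 5 WT members and 116 in 26 IL31RAKO members (ratio 5.96, 2.48 to 18.7), of which 75 lay in the 6 cDC1-led barcodes. Cd24a, a surface glycoprotein of cDC1 and Langerhans cells, stood at 63.2 and 272 CPM (4.31, 2.21 to 9.61), and Mfge8 at 787 and 1539 (1.96, 1.60 to 2.40), with 81 of the 112 WT UMIs in 1 barcode. Lyz1 (lysozyme, ratio 3.79), Lpl (lipoprotein lipase, 4.20), Ncf4 (a subunit of the phagocyte oxidase, 3.72), Lgals3 (galectin-3, 1.80), Ifi27l2a (an interferon-induced gene, 2.22), Gnb2 (a G protein subunit, 1.91) and Tubb2a (a tubulin, 2.65) were the others that the naming rule gave. Over 13 other settings the log2 ratio of Ccl2 ran from 0.63 to 4.02, that of Irf8 from 0.52 to 2.79 and that of Cd24a from 0.50 to 2.53. Lpl turned to -0.77 with the other lymphoid markers limited to 1 UMI. Markers of cDC2 went the other way. Cd209a stood at 597 and 238 CPM (0.399, 0.301 to 0.530), with 48 of its 85 WT UMIs in 1 barcode. Mgl2 stood at 618 and 438 (0.709, 0.554 to 0.916) and the whole cDC2 list at 1608 and 1073 CPM. The barcode highest in Cd209a also held 68 of the 229 WT UMIs of that list.

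Of the inflammatory list, 5 of 19 genes passed the filter and all 5 were higher in IL31RAKO members, as were 1038 of all 1811 genes, and 3 of them by 1.5-fold or more, with a median of 0.82. Cxcl2, a neutrophil attractant, stood at 463 and 653 CPM (1.41, 1.08 to 1.86), Il1b at 330 and 442 (1.34, 0.977 to 1.87) and Ccl4 at 169 and 301 (1.79, 1.16 to 2.87). All 3 were also higher in non-cycling IL31RAKO barcodes, with Cxcl2 at 807 and 2128 CPM. The median was 0.12 with 8 or more cycle UMIs demanded. Retnla had 6 UMIs in 6 WT members and 275 in 23 IL31RAKO members, with 164 of them in 1 barcode.

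Of immediate early genes, which cells switch on soon after a stimulus, Fosb, Fos and Klf6 were lower in IL31RAKO members, while Junb stood at 1053 and 1293 CPM (1.23, 1.03 to 1.47) and Atf3 at 309 and 372 (1.20, 0.865 to 1.71). Fosb had 51 UMIs in 11 WT members and 87 in 31 IL31RAKO members (358 and 157 CPM, ratio 0.438, 0.307 to 0.632), and it was lower in non-cycling IL31RAKO barcodes too, at 247 and 148 CPM. Fos stood at 1664 and 1109 CPM (0.667, 0.573 to 0.778), and 76 of its 237 WT UMIs lay in 1 barcode. Without Langerhans-led members the log2 ratio of Fos was 0.071 in place of -0.59. Of the stress and immediate early list 12 of 15 genes passed, 3 were 1.5-fold or more lower and 0 as much higher, with a median of -0.37 (0.021 without Langerhans-led members). Other genes of the naming rule were Klf6, with a ratio of 0.559, Cdkn1a at 0.583, Hmgn1 (a nucleosome-binding protein) 0.541, Ddx21 (an RNA helicase of the nucleolus) 0.398, Prpf38b (a splicing factor) 0.447, Ctnna1 (alpha-catenin) 0.497 and Wfdc17 0.594.

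The other lists had medians from -0.41 to 0.45. The class II list had a median of 0.049 with 0 of 7 genes past 1.5-fold in either direction, and H2-Aa stood at 9143 and 9437 CPM (1.03, 0.971 to 1.10). The lysosome list had a median of -0.010 over 11 genes, glycolysis 0.27 over 8, chromatin and tubulin 0.17 over 15, and cycle inhibitors 0.20 over 8. Growth factor receptors and drivers had 0.13 over 5 genes and alternative activation -0.41 over 5. The interferon list had a median of 0.45 over the 3 genes that passed. Glycolysis and interferon kept their side of 0 under every other setting that gave a value, and the medians of the 6 other lists here did not.

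The receptor of interleukin-31 was hardly seen in the members. Il31ra (mm10 chromosome 13, 112519898 to 112594360, minus strand) had 0 UMIs in WT members, which is taken to allow up to 3 of 142400, and 1 UMI in IL31RAKO members. Osmr, the chain that pairs with it, had 0 UMIs in both. Il6st (gp130), shared by the related cytokine receptors, had 3 UMIs in 3 WT members and 15 in 11 IL31RAKO members. Because the 3′ end that is sequenced need not be within the deletion, Il31ra counts do not check the genotype.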

How the data were processed

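Members and gene lists were chosen with earlier results of these data known. The deposited files were 10x matrices of raw UMI counts per gene and barcode, 737280 barcodes and 27998 genes per library, per the file headers, with 57000499 (WT) and 71333292 (IL31RAKO) UMIs. The submitters' processing notes name Cell Ranger 3.1, Seurat 3.2.2 and build mm10, with no role given. Barcodes were kept and chosen by the rule in the report. Of the T list, 8 of 12 genes were matched, and Knl1 of the mitosis list was not.

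From the deposited counts, UMIs were summed per library and set, expressed as CPM and compared as ratios. Intervals, all at 95%, were exact conditional binomial for gene ratios, exact Poisson for CPM and exact Clopper-Pearson for shares. For ratios of shares they were large-sample intervals on the log scale. They cover counting error only, and with 1 library per genotype no replicate test could be made. Genes needed 50 or more UMIs over both libraries, or in each library for cycling against non-cycling. Named genes were the 12 higher and 12 lower whose interval bound lay farthest from 1, leaving out genes with over 33.3% of their UMIs in 1 barcode, at or below their free RNA level, or mitochondrial, ribosomal, haemoglobin, antigen receptor, sex-linked or unnamed. For cycling against non-cycling they were the 12 highest and 12 lowest by the weaker of the libraries' ratios. List examples are the 2 to 4 with the most UMIs in members, beside genes of the naming rule. A count of 0 is taken to allow 3 counts. Cell names were rebuilt from leading marker lists, a rule set after seeing values, and may differ from the study's. Python 3.11.15, scipy 1.17.1 and the Scrublet caller in scanpy 1.11.5 were used, and the ratios were tested on simulated data. Gene positions are from GENCODE M21 and promoters from RefSeq on GRCm38. Alternatives covered barcode and gene filters, cycle and myeloid thresholds, Cd3 and other lymphoid limits, doublets, depth, scaling, weighting and free RNA.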

Additional observations from a re-analysis of the deposited data

How the results depend on the processing

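The share ratios, list medians and counts were recomputed under each alternative: of 433 such values 381 stayed within their interval or, for counts, 1.5 times, 51 moved further, and 1 that was 1.5-fold or more turned. Counting small values too, 39 of the 323 ratios and medians lay on the other side of 1 or 0, in 13 of 26 results. Of 312 values of named genes 251 stayed, 57 moved and 4 turned. No paired analysis was possible because each genotype has 1 library, so the groups share fewer than 2 replicate numbers. Causes were not tested. The wider Cd3 limit, weighting to the members' mix and leaving out members by leading list were chosen after seeing the data.

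With 8 or more cycle UMIs demanded, the share ratios IL31RAKO over WT were 3.45 of kept and 2.17 of gated barcodes, the cycling shares 1.75% (cDC1-led), 1.51% (cDC2-led) and 0.466% (macrophage-led), the IL31RAKO over WT medians -0.72 (alternative activation), 0.12 (inflammatory), -0.44 (class II), 0.68 (glycolysis) and -0.66 (stress), and cycling over non-cycling gave 124 genes lower and 0.12 for class II. Thinned to 2000 UMIs, the ratios were 1.15 and 0.704, the shares 4.75% (Langerhans-led), 1.05% (cDC2-led) and 0.549% (macrophage-led), and cycling over non-cycling gave 113 genes higher, 93 lower, and medians of 1.75 (replication) and 1.73 (mitosis) in place of 2.66 and 3.89 as means of the 2 libraries.

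With Cd3 at most 2 the cDC2-led share was 4.25%, IL31RAKO over WT gave 214 genes lower, -0.15 for replication and 0.30 for the inflammatory list, and cycling over non-cycling 416 genes higher and 4.83 for mitosis. With the other T, B and ILC or NK markers at most 1 UMI the shares were 4.35% (Langerhans-led) and 1.56% (cDC2-led), IL31RAKO over WT gave 98 genes higher, 44 lower, 0.82 for class II and 0.79 for glycolysis, and cycling over non-cycling gave 87 genes lower and medians of 1.46 (replication), 0.17 (glycolysis), -0.66 (stress) and 0.059 (interferon, turned from -0.64). There Lpl, Hist1h2ae and Wfdc17 turned, to -0.77, 0.010 and 0.34.

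With doublets removed the macrophage-led share was 0.573%, the class II median IL31RAKO over WT -0.11 and the cycling over non-cycling glycolysis median 0.78. The glycolysis median IL31RAKO over WT was 0.41 with H2-Ab1 and Lyz2 at 15 or more and 0.45 without T, ILC or NK or fibroblast-led members. Without Langerhans-led members the stress median was 0.021 and Fos turned to 0.071. Equal weight per barcode gave 169 genes lower and -0.10 for mitosis. A gene filter of 20 UMIs gave 787 higher and 501 lower, and 512 higher for cycling over non-cycling; no filter gave 1649 and 2231. Weighted to the members' mix, 81 genes were lower in cycling barcodes.

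Depth limits the WT side, with 26 members and 142400 UMIs: a gene at 0 there is taken to allow up to 3 UMIs.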
